A study of Arabidopsis thaliana with 12 samples.

Results

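The genes described here encode nuclear subunits of the photosynthetic light reactions in Arabidopsis: the core subunits of photosystem I (PSI) and photosystem II (PSII), the soluble and membrane-bound electron carriers, and the chloroplast ATP synthase. They were chosen by function as a named list of loci, by a rule that uses no measured value, although earlier results of these data were known. They numbered 35 of the 33602 loci in the count tables: 13 PSI genes, 13 PSII genes, 6 electron transport genes and 3 ATP synthase genes. The light-harvesting antenna genes are not among them. RNA was sequenced from whole seedlings aged 2 days, grown in darkness after stratification, a short exposure to white light and a far-red pulse, with 3 libraries for each of 4 genotypes. The genotypes were *pifq*, a quadruple mutant lacking the phytochrome-interacting factors (PIFs) PIF1, PIF3, PIF4 and PIF5; the triple mutant *pif145*, which lacks PIF1, PIF4 and PIF5 and retains PIF3; the single mutant *pif3*, which lacks PIF3 only; and the wild type (WT). The labels name no alleles for these libraries, and each mutant is represented by a single genotype label with no second line. The comparisons ask how the light-reaction genes respond in the dark to loss of PIF3, of the other 3 PIFs, and of all 4.

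In the light reactions, PSII takes electrons from water and passes them through the cytochrome b6f complex and plastocyanin to PSI, which reduces ferredoxin, and ferredoxin-NADP reductase (FNR) then makes NADPH. The proton gradient formed on the way drives the chloroplast ATP synthase. The reaction-centre proteins are encoded in the chloroplast, whereas most of the peripheral subunits are encoded in the nucleus, several of them by pairs of closely related genes. PIFs, a group of basic helix-loop-helix transcription factors, build up in the dark and are removed once light activates phytochrome, and they are known as repressors of photosynthesis genes in etiolated seedlings.

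PIFs bind the G-box, CACGTG, and the PBE-box, CACATG, and both were searched on both strands in the 250 bases upstream of each annotated start, with the I-box, GATAAG, and the motif CCAATC, which are known from promoters of photosynthesis genes. No occurrence of one motif overlapped another in the sequences printed. The G-box was present upstream of 7 of the 35 genes (20.0%), against 6.49% of the 27443 windows of this length upstream of all protein-coding genes of the annotation. The I-box was present upstream of 9 (25.7%, against 12.3%), the PBE-box upstream of 5 (14.3%, against 11.1%) and CCAATC upstream of 5 (14.3%, against 10.2%). The 7 genes with a G-box were *PSAE-2*, *PSAH-2*, *PSBQ-1*, *PSBQ-2*, *PSBTN*, *PSB28* and *ATPD*, and *PSAH-2*, *PSBQ-1* and *PSBQ-2* had 2 each. Shown here are both genes of the *PSBQ* pair, which encode an extrinsic subunit of the oxygen-evolving side of PSII, and both genes of the *PSAH* pair, which encode a PSI subunit at the docking site of mobile antenna. They were chosen after the values were seen, as pairs whose balance differed across the genotypes and which have G-boxes upstream of both genes (*PSBQ*) or of 1 gene (*PSAH*). The *PSAE* pair also differed, with a G-box upstream of *PSAE-2* only, and is not printed. Its balance moved in *pifq* by 0.68 on the log2 scale toward *PSAE-1*, the gene without a G-box. That of the *PSAH* pair moved toward *PSAH-2*, the gene with G-boxes. A link between the motif and the balance was not tested. The motifs are in capitals, each sequence runs 5′ to 3′ on the strand of its gene and ends at the base before the start, and all come from the RefSeq annotation of TAIR10.1.
PSBQ-2, chr4:2673244-2673493, minus strand: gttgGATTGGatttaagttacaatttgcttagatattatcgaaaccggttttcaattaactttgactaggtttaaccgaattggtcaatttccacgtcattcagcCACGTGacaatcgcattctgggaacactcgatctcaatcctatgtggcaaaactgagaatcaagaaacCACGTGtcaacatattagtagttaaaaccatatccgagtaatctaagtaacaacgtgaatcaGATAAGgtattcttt
PSBQ-1, chr4:11334102-11334351, plus strand: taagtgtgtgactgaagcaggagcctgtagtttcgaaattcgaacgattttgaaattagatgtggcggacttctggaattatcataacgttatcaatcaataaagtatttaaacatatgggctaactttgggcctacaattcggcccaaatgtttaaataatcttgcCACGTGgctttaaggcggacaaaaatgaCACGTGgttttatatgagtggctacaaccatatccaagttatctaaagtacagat
PSAH-2, chr1:19454548-19454797, plus strand: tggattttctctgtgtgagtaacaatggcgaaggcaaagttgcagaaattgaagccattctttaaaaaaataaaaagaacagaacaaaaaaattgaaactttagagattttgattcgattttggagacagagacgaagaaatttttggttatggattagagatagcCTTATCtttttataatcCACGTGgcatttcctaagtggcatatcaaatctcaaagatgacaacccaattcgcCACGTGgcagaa
PSAH-1, chr3:5469595-5469844, minus strand: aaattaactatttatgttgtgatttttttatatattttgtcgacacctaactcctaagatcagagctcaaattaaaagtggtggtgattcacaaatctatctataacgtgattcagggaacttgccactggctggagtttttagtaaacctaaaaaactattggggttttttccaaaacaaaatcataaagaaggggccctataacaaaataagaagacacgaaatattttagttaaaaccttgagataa

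The *PSBQ-2* window held G-boxes starting 145 and 77 bases upstream, an I-box at 15 and a CCAATC motif on the opposite strand at 246. The *PSBQ-1* window held G-boxes at 83 and 55. The *PSAH-2* window held G-boxes at 67 and 12 and an I-box on the opposite strand at 84, and the *PSAH-1* window held none of the 4 motifs. The neighbouring gene *CURT1C* is annotated up to base 19454765 of chromosome 1, inside the *PSAH-2* window. The G-box at 67 and the I-box at 84 therefore lie within that gene, and the G-box at 12 lies between the genes. Windows were kept at full length whether or not they met another gene. A match is a string of letters in a window and was not tested here for binding. The study mapped PIF3 binding across the genome by ChIP-seq in dark-grown seedlings, and those sites were not compared with these windows. It reports PIF3 peaks at G- or PBE-boxes for only a small part of its rapidly light-induced genes. It reads its data as PIF3 mainly activating its direct targets in the dark.

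Each library held between 23907577 and 41247734 counted reads, and levels are given as CPM, the count divided by the scaled library total and expressed per 1000000 reads. PIF3 was at 0.418 to 1.27 CPM in *pifq* and 0.688 to 1.71 CPM in *pif3*, against 36 to 58.6 CPM in *pif145* and 52.3 to 80.1 CPM in WT. PIF1 was at 0.0762 to 0.16 CPM in *pifq* and *pif145*, against 8.65 to 10.6 CPM in *pif3* and WT, and PIF5 had at most 2 reads in any *pifq* or *pif145* library, against 39 to 68 in *pif3* and WT. PIF4 was at 2.55 to 2.95 CPM in *pifq*, 4.36 to 6.21 CPM in *pif145*, 2.97 to 7.27 CPM in *pif3* and 1.73 to 5.33 CPM in WT. PIF4 passed the test in no comparison of 2 genotypes, although with the replicate block its log2 fold changes of 0.81 in *pif145* against WT and -0.98 in *pifq* against *pif145* had edgeR adjusted p of 0.00462 and 0.00314. Reads at the 3′ end do not check a disruption located elsewhere in the gene. Libraries with the same replicate number deviated together from their genotype means, so a fit with the replicate number as a block is quoted wherever it changes a call of the 35 genes. A gene is said to have risen or fallen where the edgeR quasi-likelihood test gave an adjusted p of at most 0.05, Benjamini-Hochberg over the 18356 genes tested, and a fold change of at least 2. All 35 genes were among those tested.

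Nearly all light-reaction genes were highest in *pifq*, and in 33 of the 35 the genotype means stood in the order WT, *pif3*, *pif145*, *pifq* from low to high, an order found in 18.4% of all genes tested. The exceptions were *PSBS* and *ATPG*. Summed over the 35 genes, reads made up 4.35%, 3.71% and 4.28% of the scaled total in the 3 *pifq* libraries, 2.85%, 2.28% and 2.85% in *pif145*, 1.7%, 1.6% and 2.08% in *pif3*, and 1.17%, 1.26% and 1.21% in WT. No library of one genotype overlapped those of another in this sum. Against WT, 28 of the 35 genes rose in *pifq*, 19 in *pif145* and 1 in *pif3*, and none fell in any mutant. With the block 29 rose in *pifq*, *PSAP* in addition, against 6.17% of all genes tested. Without the block, 4.92% of all genes tested rose in *pifq*, 0.893% in *pif145* and 0.0272% in *pif3*. The median log2 fold change of the 35 genes was 1.76 in *pifq*, 1.11 in *pif145* and 0.58 in *pif3*, and the medians over all genes tested were -0.03, -0.02 and -0.01. The 3 comparisons share the WT libraries. In whole seedlings, a difference in RNA per cell cannot be told apart from a difference in the share of cells that express these genes.

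**Figure D1:**
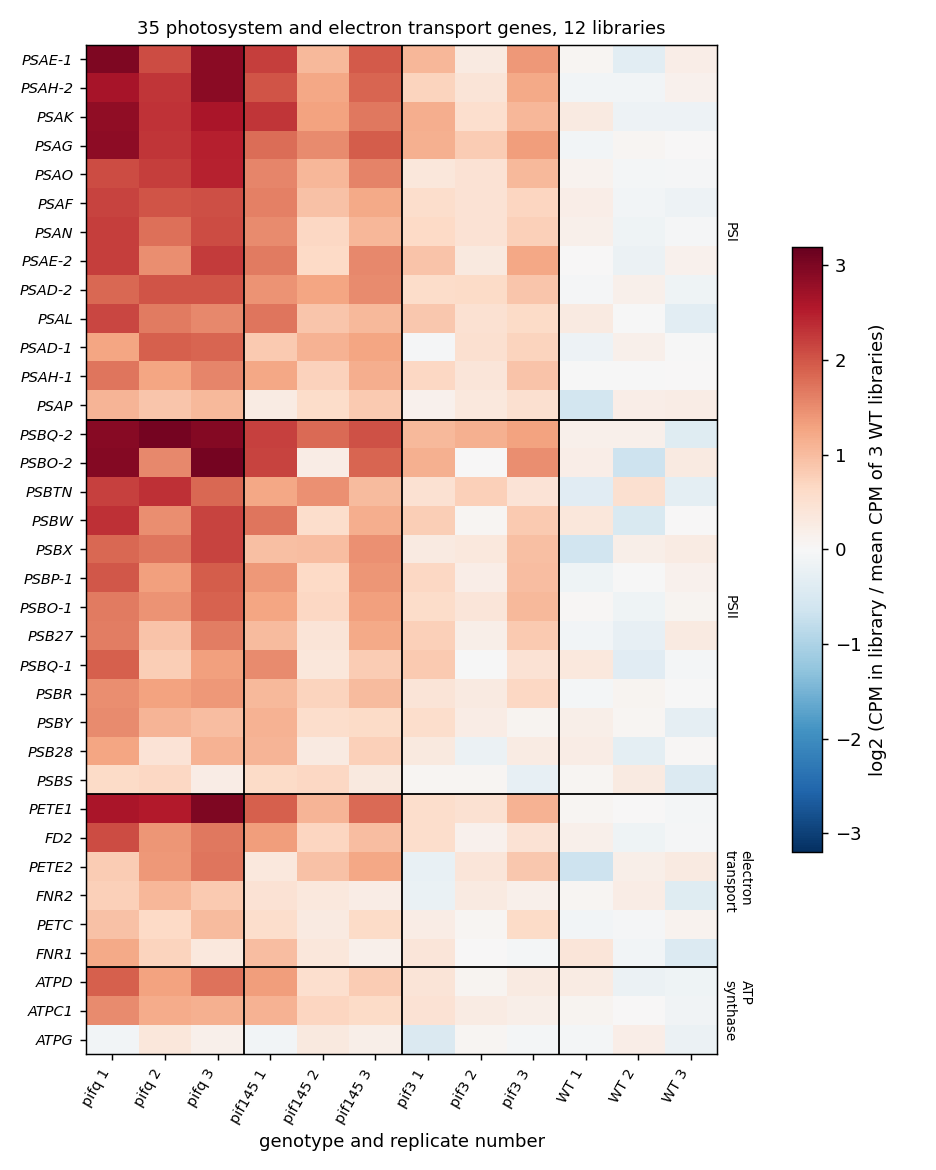
Level of each of the 35 genes (rows, grouped by role) in each of the 12 libraries (columns, by genotype and replicate number), as the log2 difference from the WT mean. Colour deepens across *pif3*, *pif145* and *pifq* for most rows, whereas *PSBS* and *ATPG* depart least from the WT mean in *pifq*.

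In *pifq* 12 of the 13 photosystem I genes rose against WT (median log2 fold change 2.03), and the same count rose in *pif145* (median 1.35), whereas none was called in *pif3* (median 0.66, 11 of 13 with p at most 0.05 by edgeR before adjustment, and 1 called with the replicate block). *PSAP*, which encodes a thylakoid membrane protein also known for bending the membrane at grana margins, was the exception in *pifq*. Its levels were 415, 361 and 401 CPM in *pifq*, 237, 293 and 350.5 CPM in *pif145*, 215, 248 and 281 CPM in *pif3*, and 132, 227 and 231 CPM in WT. All *pifq* libraries lay above all WT libraries, and the log2 fold change of 0.99 ± 0.22 (SE; edgeR adjusted p = 0.00728) was just short of a doubling; with the replicate block it was 1.04 (edgeR adjusted p = 8.1e-07) and counted as a rise.

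*PSAD* and *PSAE* encode subunits on the stromal side of PSI, where ferredoxin docks. *PSAE-1* had 723, 384 and 674 CPM in *pifq*, 419, 188 and 351 CPM in *pif145*, 191, 111 and 236 CPM in *pif3*, and 95.2, 72.3 and 105 CPM in WT. The *pifq* libraries were above all others apart from *pif145* replicate 1, which exceeded *pifq* replicate 2. The replicate 2 library was the lowest in each genotype, and the log2 fold change of *pifq* against WT was 2.71 ± 0.36 (SE; edgeR adjusted p = 0.000308). *PSAD-2* had 420.1, 476 and 474 CPM in *pifq*, 322, 284 and 337 CPM in *pif145*, 179, 182 and 220.2 CPM in *pif3*, and 115, 133 and 107 CPM in WT. The 4 genotypes did not overlap for *PSAD-2*, which gave log2 fold changes against WT of 1.94 ± 0.14 in *pifq* (edgeR adjusted p = 5.29e-06), 1.41 in *pif145* and 0.71 in *pif3*. Their partner genes *PSAD-1* and *PSAE-2* rose in *pifq* by 1.71 and 2.02 on the log2 scale.

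*PSAG* and *PSAK* encode membrane subunits that flank the PSI core. *PSAG* had 9882, 6645 and 7700 CPM in *pifq*, 4725, 3868 and 5207 CPM in *pif145*, 2991, 2407 and 3456 CPM in *pif3*, and 1279, 1423 and 1386 CPM in WT. No library of one genotype overlapped another for *PSAG*. The log2 fold changes against WT were 2.57 ± 0.19 in *pifq* (edgeR adjusted p = 5.76e-06), 1.76 in *pif145* and 1.11 ± 0.18 in *pif3*. The edgeR adjusted p in *pif3* was 0.0793, and with the replicate block it was 3.75e-06 at a log2 fold change of 1.09, which counted as a rise. *PSAK* rose in *pifq* by 2.60 ± 0.27 on the log2 scale and in *pif145* by 1.82.

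On the side of PSI where mobile antenna binds, *PSAH-2* had 460.2, 365 and 548 CPM in *pifq*, 298, 175 and 269 CPM in *pif145*, 122, 99.1 and 173 CPM in *pif3*, and 70.7, 70.7 and 82.1 CPM in WT. The *PSAH-2* log2 fold change in *pifq* was 2.62 ± 0.25 (SE; edgeR adjusted p = 3.5e-05), and the lowest *pifq* library was above the highest *pif145* library. *PSAH-1* had 704, 516 and 631 CPM in *pifq*, 510.4, 356 and 484 CPM in *pif145*, 339, 282 and 402 CPM in *pif3*, and 215, 214 and 217 CPM in WT. *PSAH-1* rose in *pifq* by 1.52 ± 0.18 on the log2 scale, less than its partner. *PSAL* and *PSAO*, which encode subunits next to *PSAH*, rose in *pifq* by 1.80 and 2.25, and *PSAF* and *PSAN*, which encode the subunits on the lumenal side that receives plastocyanin, rose by 2.08 and 2.03.

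Among the photosystem II genes, 11 of the 13 rose in *pifq* against WT (median log2 fold change 1.67), 5 rose in *pif145* (*PSBQ-2*, *PSBTN*, *PSBX*, *PSBP-1* and *PSBO-1*, median of the 13 genes 1.11), and *PSBQ-2* was the one that rose in *pif3* (median 0.58). *PSBQ-2* (AT4G05180, chromosome 4, 2671523 to 2673243, minus strand, TAIR10.1) had 545, 599 and 550.5 CPM in *pifq*, 328, 253 and 294 CPM in *pif145*, 148, 158 and 175 CPM in *pif3*, and 80.9, 79.8 and 54.7 CPM in WT. The 4 genotypes were fully separated, and no other of the 35 genes changed more in *pifq*. The *PSBQ-2* log2 fold changes against WT were 2.98 ± 0.18 in *pifq* (SE; edgeR adjusted p = 1.23e-06), 2.02 ± 0.17 in *pif145* (8.78e-05) and 1.16 ± 0.17 in *pif3* (0.0419). The call in *pif3* was lost when any 1 replicate number was left out, when WT replicate 2 or 3 or any *pif3* library was left out, and when *pif145* replicate 3 or *pifq* replicate 2 or 3 was left out.

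*PSBQ-1* (AT4G21280), the other gene of the pair, had 717, 331 and 474 CPM in *pifq*, 547, 245 and 336 CPM in *pif145*, 341, 191 and 263 CPM in *pif3*, and 243, 149.5 and 182 CPM in WT. Replicate 1 was the highest and replicate 2 the lowest in each genotype, and all *pifq* libraries were above all WT libraries. The *PSBQ-1* log2 fold change in *pifq* was 1.41 ± 0.34 (SE; edgeR adjusted p = 0.0139), and this call was lost at adjusted p = 0.176 without replicate 3, at 0.0632 without WT replicate 2, at 0.0523 without *pifq* replicate 1 and at 0.0504 without scaling factors. The manganese-stabilizing subunit of the oxygen-evolving complex is encoded by *PSBO-1* and *PSBO-2*. *PSBO-2* had 107, 40.4 and 116 CPM in *pifq*, 63.1, 16.5 and 51 CPM in *pif145*, 30.8, 14.1 and 38.9 CPM in *pif3*, and 16.1, 8.82 and 17 CPM in WT. The replicate 2 library was the lowest in every genotype and at every replicate number the genotypes kept the same order, with a log2 fold change in *pifq* of 2.66 ± 0.54 (SE; edgeR adjusted p = 0.00513). Without replicate 3 the adjusted p was 0.103. In *pif145* *PSBO-2* stood at 1.64 ± 0.53 (edgeR adjusted p = 0.119), and with the replicate block it rose (edgeR adjusted p = 1.13e-07).

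*PSBO-1* and *PSBP-1*, which encode the abundant extrinsic subunits of the same complex, rose in *pifq* by 1.67 and 1.78 on the log2 scale and in *pif145* by 1.11 and 1.19. The small membrane or lumenal subunits *PSBTN*, *PSBX*, *PSBW* and *PSBY* rose in *pifq* by 2.13, 1.91, 2.04 and 1.21. *PSBW* lost its *pifq* call without replicate 3 (edgeR adjusted p = 0.0709), and in *pif145* it was at 1.22 with adjusted p = 0.0664 by edgeR and rose with the block (1.36e-08). *PSBR*, which helps the extrinsic subunits bind, and *PSB27*, an assembly and repair factor of PSII, rose in *pifq* by 1.39 and 1.42. *PSB27* lost its call without replicate 1 (edgeR adjusted p = 0.0501). *PSB28*, another assembly factor, had 100.4, 56.6 and 90.8 CPM in *pifq*, 88.8, 50.7 and 70.2 CPM in *pif145*, 51.6, 36.6 and 50.1 CPM in *pif3*, and 49.2, 33.4 and 42.5 CPM in WT. Its log2 fold change in *pifq* was 0.99 ± 0.26 (SE; edgeR adjusted p = 0.0189), just under a doubling.

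*PSBS* (AT1G44575), which encodes the sensor of photoprotective energy dissipation, was, with *PSB28*, one of the 2 PSII genes not called in *pifq*. It had 485, 502 and 377 CPM in *pifq*, 489, 500.1 and 396 CPM in *pif145*, 334, 334 and 266 CPM in *pif3*, and 331, 391 and 234 CPM in WT. The *pif3* libraries lay within the range of WT, and those of *pifq* and *pif145* covered nearly the same range as each other. At every replicate number *pifq* and *pif145* were above WT. Log2 fold changes against WT were 0.51 ± 0.20 in *pifq* (SE; edgeR adjusted p = 0.0921), 0.54 ± 0.20 in *pif145* (0.178) and -0.03 in *pif3*, and the difference of *pifq* from *pif145* was -0.02. With the block all 13 PSII genes, *PSBS* included, had an edgeR adjusted p of at most 0.05 in *pifq* and in *pif145*. Without regard to fold, 9273 and 5822 of the 18356 genes tested did so. *PSBS* stayed under the fold limit in both.

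Among the 6 electron transport genes, *PETE1*, *PETE2* and *FD2* rose in *pifq* (median of the 6 genes 1.12), *PETE1* and *FD2* rose in *pif145* (median 0.71) and none was called in *pif3* (median 0.36, 1 with p at most 0.05 by edgeR before adjustment and 0 called with the block). *PETC*, the gene for the Rieske iron-sulfur subunit of the cytochrome b6f complex, had 504, 404 and 529 CPM in *pifq*, 387, 321 and 398 CPM in *pif145*, 308, 275 and 397 CPM in *pif3*, and 248, 256 and 281 CPM in WT. All *pifq* libraries of *PETC* were above all WT libraries, at a log2 fold change of 0.87 ± 0.17 (SE; edgeR adjusted p = 0.00345) that stayed under the fold limit. *PETE1* (AT1G76100), a plastocyanin gene, had 135, 127 and 173 CPM in *pifq*, 82.2, 46.5 and 77.3 CPM in *pif145*, 32.5, 30.6 and 47 CPM in *pif3*, and 22.7, 22 and 21 CPM in WT. The genotypes did not overlap except for *pif145* replicate 2, which was just below *pif3* replicate 3, and the log2 fold change of *pifq* against WT was 2.73 ± 0.24 (SE; edgeR adjusted p = 1.74e-05).

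*PETE2* (AT1G20340), the other plastocyanin gene, had 3422, 5128 and 6428 CPM in *pifq*, 2444, 3702 and 4609 CPM in *pif145*, 1657, 2554 and 3520.2 CPM in *pif3*, and 1238, 2222 and 2375 CPM in WT. Replicate 1 was the lowest in each genotype. The *PETE2* log2 fold change in *pifq* was 1.36 ± 0.34 (SE; edgeR adjusted p = 0.016), and the call was lost without replicate 2 (adjusted p = 0.157), replicate 3 (0.102), WT replicate 1 (0.057) or *pifq* replicate 3 (0.0684). *FD2*, the main leaf ferredoxin gene, rose in *pifq* by 1.76 ± 0.21 and in *pif145* by 1.03. The 2 leaf FNR genes were not called. *FNR1* had log2 fold changes of 0.80 in *pifq* (edgeR adjusted p = 0.0672), 0.55 in *pif145* and 0.13 in *pif3*, and *FNR2* had 0.89 (0.00564), 0.35 and 0.09.

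Of the 3 ATP synthase genes, 2 rose in *pifq*. *ATPC1*, encoding the gamma subunit on which light regulation acts, rose by 1.29 ± 0.17 on the log2 scale, and *ATPD*, encoding the delta subunit, rose by 1.67. None was called in *pif145* (median 0.81) or in *pif3* (median 0.26), with or without the block. In *pif145* 2 had an edgeR adjusted p of at most 0.05 in both fits and stayed under the fold limit. Without regard to fold, 608 of the 18356 genes tested reached that p without the block and 5822 with it. In *pif3* 0 had p at most 0.05 by edgeR before adjustment, and 1 had an adjusted p of at most 0.05 with the block (background 7.88%). *ATPG* (AT4G32260), encoding a subunit of the peripheral stalk, had 707, 972 and 839 CPM in *pifq*, 706, 926 and 849 CPM in *pif145*, 546, 786 and 716 CPM in *pif3*, and 721, 871 and 663 CPM in WT. The 4 genotypes overlapped, and the log2 fold change of *ATPG* in *pifq* was 0.16 ± 0.18 (SE; edgeR adjusted p = 0.595).

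**Figure D2:**
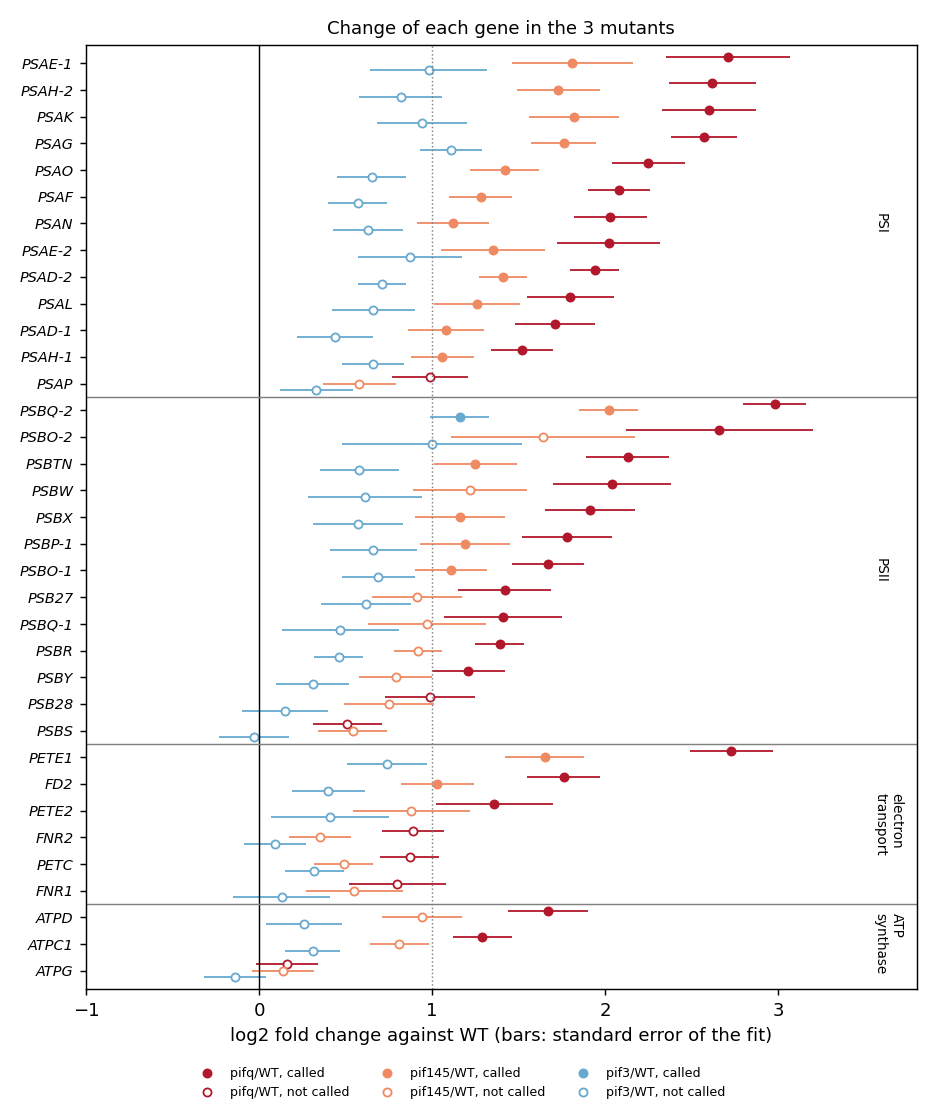
Log2 fold change against WT for each of the 35 genes in *pifq*, *pif145* and *pif3*, with bars showing the SE of the fit and filled points marking genes that passed the test and a dotted line at a doubling. Values in *pifq* range from 0.16 for *ATPG* to 2.98 for *PSBQ-2*.

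The *pif145* count depended on the replicates. Of the 35 genes, 19 rose in *pif145*, all of which also rose in *pifq*, and with the block 21 did (*PSBO-2* and *PSBW* in addition; background 2.02%). Without replicate 3 of every genotype 1 gene passed, without replicate 1 there were 9 and without replicate 2 there were 12. Over all genes tested, 6 of 18492, 106 of 18307 and 51 of 18395 rose in these settings in turn, against 164 of 18356 with every library. Leaving out single libraries gave 10 without WT replicate 2, 11 without WT replicate 3, 10 without *pif145* replicate 1 and 12 without *pif145* replicate 3. Over all genes tested, 82 of 18528, 91 of 18505, 96 of 18477 and 97 of 18677 rose in these settings in turn. With the block and a replicate number left out, a combination chosen after seeing the data, 16, 25 and 19 passed without replicates 1, 2 and 3 in turn. Over all genes tested, 356 of 18307, 381 of 18395 and 316 of 18492 rose in these fits. Averaged over the 35 genes, the replicate 2 library deviated from the genotype mean by -0.20 on the log2 scale in *pifq*, -0.29 in *pif145*, -0.20 in *pif3* and -0.02 in WT, and the part of this in the calls was not tested. Libraries of *pif145* all stood above those of WT for 31 of the 35 genes, against 10.9% of all genes tested, and *pif145* was higher at each of the 3 replicate numbers for 34 (background 27.9%). For *pifq* these counts were 32 (background 17.2%) and 34 (31.9%), and for *pif3* they were 18 (5.17%) and 32 (21.1%).

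Loss of PIF3 alone gave smaller differences, mostly of the same sign. In *pif3* 33 of the 35 log2 fold changes against WT were above 0, between -0.14 for *ATPG* and 1.16 for *PSBQ-2*, and 19 reached p at most 0.05 by edgeR before adjustment, against 4.63% of all genes tested. With the replicate block *PSBQ-2* and *PSAG* rose (background 0.545%), and 28 of the 35 reached an edgeR adjusted p of at most 0.05 without regard to fold, against 7.88% of all genes tested. Between *pifq* and *pif145*, which also differ by PIF3, *PETE1* rose, at a log2 fold change of 1.08 ± 0.23 (SE; edgeR adjusted p = 0.0464), while 0.251% of all genes tested rose. When replicate numbers or single libraries were left out, this call held without *pif3* replicate 3 and without *pif145* replicate 1 and was lost in every other case. With the block *PSBO-2* rose as well (1.04, edgeR adjusted p = 1.01e-05, background 0.926%), and 32 of the 35 reached an adjusted p of at most 0.05 without regard to fold, against 14.7% of all genes tested. *PSBQ-2* differed by 0.95 (edgeR adjusted p = 0.0163), under the fold limit. The median over the 35 genes was 0.59, and *pifq* libraries all stood above those of *pif145* for 20 genes (background 6.45%).

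The step between these pairs of genotypes was compared directly, since *pifq* with *pif145* and *pif3* with WT share no library. The interaction, the log2 fold change of *pifq* against *pif145* minus that of *pif3* against WT, had a median of 0.07 over the 35 genes and lay between -0.30 and 0.47, with SE from 0.20 to 0.73. None of the 35 was called by edgeR, with 0 with p at most 0.05 before adjustment and 0 adjusted calls with the block (4 unadjusted), where SE were 0.1 to 0.19. In all genes tested 0.109% were called, and 2.57% with the block. Before adjustment, 567 of the 18356 genes tested had p at most 0.05 by edgeR, and 2617 with the block. In neither fit was a difference between the steps detected for any of the 35 genes. With shares this low over all genes, counts of 0 say little about the 35. With the block and without replicate 1, a combination chosen after seeing the data, 2 were called with an interaction above 0. Over all genes tested, 265 of 18307 were called above 0 in that fit. Between *pifq* and *pif3*, which differ by PIF1, PIF4 and PIF5, 19 genes rose (background 2.49%, median log2 fold change 1.15), with 11 of 13 PSI genes, 5 of 13 PSII genes, 2 of 6 electron transport genes and 1 of 3 ATP synthase genes. With the block *PSBO-2* rose as well (1.63, edgeR adjusted p = 8.92e-09), which made 20 genes, 6 of them of PSII (background 3.84%). Without replicate 3 and without the block the count was 10.

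For the 28 genes that rose in *pifq*, the levels of *pif145* and *pif3* were placed on a linear CPM scale with *pifq* at 100% and WT at 0%. The choice of these 28 genes used the *pifq* and WT libraries, so the shares are a description. In *pif145* the median share was 48.5%, between 37.8% for *PSAN* and 58.4%, and in *pif3* it was 18.1%, between 9.26% for *ATPD* and 32% for *PSB27*. The share was larger in *pif145* than in *pif3* for 28 of 28 genes. The shares of *pif145* and *pif3* added to between 50% and 89.6%, with a median of 66.1%, and so lay under 100% for all 28. On this linear scale, rises with equal log2 steps in both backgrounds also add to under 100%. The sums therefore do not show that the steps differed. At replicate numbers 1, 2 and 3 the median share was 56.5%, 38.4% and 48.4% in *pif145* and 17.7%, 13.8% and 23.6% in *pif3*.

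**Figure D3:**
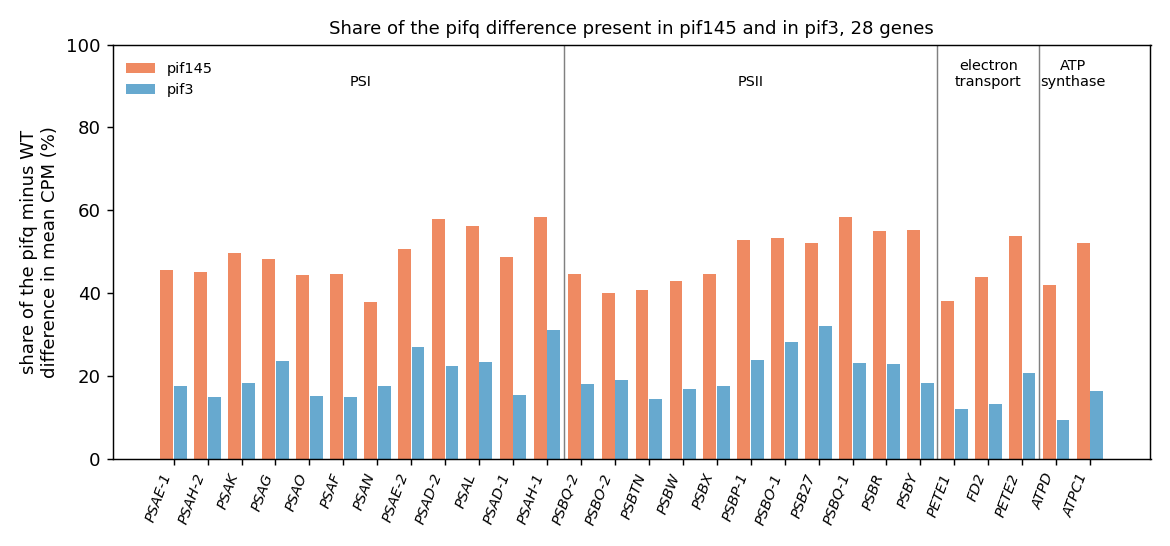
Share of the *pifq* minus WT difference in mean CPM reached in *pif145* and in *pif3*, in percent, for each of the 28 genes that rose in *pifq*. Paired bars are for *pif145* (37.8% to 58.4%) and *pif3* (9.26% to 32%), and the *pif145* bar is the taller for each gene.

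Where a subunit is encoded by a pair of genes, the balance within the pair was compared as the log2 ratio of the counts of both genes in the same library, which does not depend on library size. A single gene's counts depend on how much of its 3′ end was captured, so the ratio is read only across genotypes. The 7 pairs share 75.0% to 88.0% of aligned coding bases, and every 36-base window of the 3′ ends that were counted was unique to its gene. For the *PSAH* pair, the log2 ratio of *PSAH-1* to *PSAH-2* was 0.61, 0.50 and 0.21 in *pifq*, 0.78, 1.02 and 0.85 in *pif145*, 1.47, 1.51 and 1.22 in *pif3*, and 1.61, 1.60 and 1.40 in WT. The balance thus moved toward *PSAH-2* by 1.10 on the log2 scale in *pifq* against WT, with *pifq* and *pif145* fully separated from *pif3* and WT (exact permutation test over the 4 genotypes, p = 0.000195, adjusted over 7 pairs 0.000909). For the *PSAE* pair, the log2 ratio of *PSAE-1* to *PSAE-2* was 1.80, 1.59 and 1.66 in *pifq*, 1.55, 1.42 and 1.43 in *pif145*, 1.16, 1.00 and 1.16 in *pif3*, and 1.06, 0.88 and 1.07 in WT. It moved toward *PSAE-1* by 0.68 (exact permutation p = 0.00026, adjusted 0.000909), with *pifq* above *pif145* and both above the other genotypes in each library.

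For the *PSBQ* pair, the log2 ratio of *PSBQ-1* to *PSBQ-2* was 0.40, -0.86 and -0.22 in *pifq*, 0.74, -0.05 and 0.19 in *pif145*, 1.20, 0.27 and 0.59 in *pif3*, and 1.59, 0.91 and 1.74 in WT. At every replicate number it was lowest in *pifq* and highest in WT, and *pifq* was 1.63 lower than WT on the log2 scale (exact permutation p = 0.0182, adjusted 0.0426). The log2 ratio of *PETE1* to *PETE2* was -4.67, -5.33 and -5.22 in *pifq*, -4.89, -6.31 and -5.90 in *pif145*, -5.67, -6.38 and -6.23 in *pif3*, and -5.77, -6.66 and -6.82 in WT. The *pifq* libraries were above the WT libraries by 1.34 on average, but *pif145* replicate 1 lay within the *pifq* range and *pif3* overlapped WT, and the difference was not called (exact permutation p = 0.0766, adjusted 0.134). When the genotype labels were permuted within replicate numbers, the adjusted p was 0.00304 for the *PETE*, *PSAH*, *PSAE* and *PSBQ* pairs, 0.00486 for *PSBO-1* over *PSBO-2* (*pifq* minus WT -0.91) and 0.0101 for *PSAD-1* over *PSAD-2* (-0.25), and the last 2 pairs had 0.452 without the block. *FNR1* over *FNR2* gave -0.11, with 0.299 with the block and 0.846 without it. The smallest p these permutations allow is 6.49e-05 without the block and 0.00174 with it. With 2 replicates per genotype the adjusted p was 0.0667 for *PSAH* and *PSAE* and 0.711 for *PSBQ* without replicate 3, and 0.1 for *PSBQ* without replicate 2, and the smallest unadjusted p that 8 libraries allow is 0.00952.

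**Figure D4:**
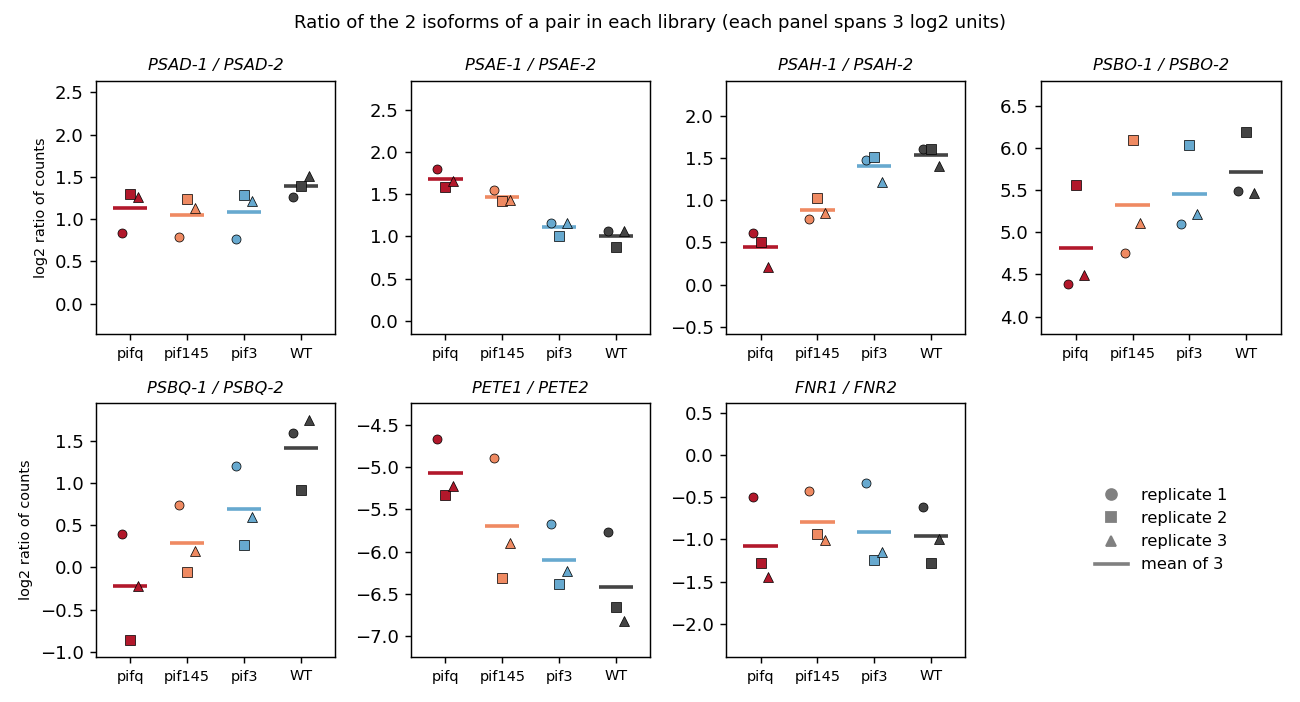
Log2 ratio of the counts of the 2 genes of each isoform pair in each library, by genotype, with lines at the genotype means. The *PSAH* and *PSBQ* ratios are lowest and the *PSAE* and *PETE* ratios highest in *pifq*, by -1.10, -1.63, 0.68 and 1.34 against WT.

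Other genes of the thylakoid were set beside the 35, as lists chosen by function. Of the light-harvesting antenna genes, 17 of 21 rose in *pifq* (median log2 fold change 3.00), 17 in *pif145* (2.22) and 3 in *pif3* (0.95, or 10 with the block), and their summed counts made up 2.65% ± 0.424 of the scaled total in *pifq*, 1.14% ± 0.368 in *pif145*, 0.498% ± 0.135 in *pif3* and 0.217% ± 0.0171 in WT (SD, n = 3 each). The same sum over the PSI genes was 2.16% in *pifq*, 1.31% in *pif145*, 0.83% in *pif3* and 0.478% in WT, and over the PSII genes it was 1.1% in *pifq*, 0.738% in *pif145*, 0.514% in *pif3* and 0.362% in WT. Of the 21 antenna genes, 5 had a G-box in the 250 bases upstream (6.49% of all windows), 3 a PBE-box (11.1%), 4 an I-box (12.3%) and 10 CCAATC (10.2%). Of 8 other thylakoid subunits and carriers tested, 4 rose in *pifq* (median 0.90). The 3 with the smallest adjusted p encode membrane curvature proteins: *CURT1D* and *CURT1C* rose by 1.01 and 1.05 on the log2 scale, and *CURT1A* was at 0.80 (edgeR adjusted p = 0.00157), short of a doubling. The other calls, named after their values were seen, were *FD1*, the minor leaf ferredoxin gene (1.26), and *PETM*, which encodes a small cytochrome b6f subunit (1.19). None of the 8 was called in *pif145* or *pif3* (5 and 0 with p at most 0.05 by edgeR before adjustment, and 0 and 0 called with the block). Over all genes tested, 16.8% and 4.63% had p at most 0.05 by edgeR before adjustment in *pif145* and *pif3*.

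Of 20 genes for the NDH complex and cyclic electron flow around PSI, 2 rose in *pifq* (*PNSB1* by 1.05 and *NDHU* by 1.37 on the log2 scale, median of the list 0.57), while *PNSB5*, at 0.90, had the smallest adjusted p of the list (0.00959 by edgeR), and none was called in *pif145* (10 unadjusted by edgeR, 1 called with the block) or *pif3* (1 unadjusted, 0 with the block). With the block and without regard to fold, 17 of the 20 had an edgeR adjusted p of at most 0.05 in *pifq* and 18 in *pif145*. Over all genes tested, 9273 and 5822 did. Before adjustment, 31.5% of all genes tested had p at most 0.05 by edgeR in *pifq*, 16.8% in *pif145* and 4.63% in *pif3*. Of 12 photosystem assembly factors none was called in *pifq* (median 0.27, 2 with p at most 0.05 by edgeR before adjustment, 0 called with the block). With the block 8 of the 12 had an edgeR adjusted p of at most 0.05, all under the fold limit. A list of 5 further ferredoxin and FNR isoforms gave no call either, with or without the block (median 0.72). Of these, 4 had an edgeR adjusted p of at most 0.05 without the block and 5 with it, all under the fold limit. Without regard to fold, 3381 and 9273 of the 18356 genes tested reached that p. Of 32 chloroplast-encoded subunit loci, 5 had enough reads to be tested in these libraries of polyadenylated RNA, and none was called in *pifq* (0 unadjusted and 0 with the block).

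Markers of other seedling parts were read in the same libraries. Of 9 seed storage genes tested, 5 fell in *pifq* against WT (6 with the block) and 4 in *pif145* (5 with the block), while 3.35% and 0.817% of all genes tested fell without the block, and none was called in *pif3* (3 with p at most 0.05 by edgeR before adjustment, 1 called with the block). The list includes *OLEO3*, which the study gives as a likely direct target of PIF3 activation, so it is not a list of seed remains alone. The summed level of all 10 genes of the list was 0.0146% to 0.0237% of the scaled total in *pifq*, 0.0205% to 0.0279% in *pif145*, 0.0859% to 0.132% in *pif3* and 0.0728% to 0.166% in WT, and was above 0 in every library. Of 9 root genes none was called in *pifq*, *pif145* or *pif3* against WT (1, 1 and 0 unadjusted by edgeR, 0 with the block). In *pifq* 1 had an edgeR adjusted p of at most 0.05 and stayed under the fold limit, and with the block 7 did. Without regard to fold, 3381 and 9273 of the 18356 genes tested reached that p. The sum of the root genes was 0.031% to 0.0355% in *pifq*, 0.0355% to 0.0368% in *pif145*, 0.0367% to 0.0379% in *pif3* and 0.0379% to 0.042% in WT. The part of either in the differences of the light-reaction genes was not tested.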

How the data were processed

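The authors captured polyadenylated 3′-end fragments and sequenced directional reads. Replicate 1 was read for 36 bases, and replicates 2 and 3 were read further on another sequencer model and trimmed to 36 bases. The reads were aligned with Bowtie (0.12.7 in the submitters' processing notes, after CASAVA 1.7.0) allowing 0 mismatches. The authors deposited raw counts per locus of reads unique within the last 500 bases of each transcript, without normalization. The study's methods name TAIR9 transcripts and the processing notes TAIR10. All 12 value columns were mapped to samples by name, none was left unmapped, and 32835 of the 33602 loci (97.7%), with all 35 genes, matched the RefSeq TAIR10.1 annotation, from which coordinates, promoters and coding sequences were taken. Coding sequences stood in for proteins in the identity of gene pairs.

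Counts were scaled by TMM and filtered with filterByExpr, which left 18356 genes, and all 4 genotypes were fitted in 1 model and tested by quasi-likelihood (edgeR 4.0.16, limma 3.58.1, R 4.3.3), after recovery of changes was tested on simulated data. Total counts per library were 23907577 to 41247734, and the common dispersion was 0.0572, so spread between libraries rather than read depth limited the precision. Replicates are described by the study as biological, but what the shared numbers mark is not given in the sources used here. Deviations from genotype means correlated at 0.51 to 0.68 in the 18 same-numbered pairs, against -0.49 to 0.00 in 36 others, so the numbers were taken to pair the libraries, and the fit with the replicate block has a common dispersion of 0.00719. The sequencer model of replicate 1 cannot be told apart from other properties of that number. Libraries of one genotype differed beyond sampling noise.

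Pairs of genes were compared as log2 ratios of counts plus 0.5, by exact permutation of the genotype labels (two-sided, between-genotype variance) with Benjamini-Hochberg adjustment over 7 pairs. Any of the 35 genes could be named, and of each other list at most the 3 genes with the smallest adjusted p in *pifq* against WT, beside the 4 PIF genes. Outside this rule, *FD1* and *PETM* were named after their values were seen, and *OLEO3* because the study lists it as a PIF3 target. The 35 genes and the other gene lists were chosen with earlier results of these data known. The pair ratios were also computed with 5 added to each count. Alternatives were the replicate block, a sequencer term, DESeq2 1.42.0, no scaling factors, TMM without the photosynthesis and storage genes, no filter, a filter of 5 CPM in 3 libraries, fits of only the genotypes compared, and leaving out each replicate number or library. The block with a replicate number left out was added after seeing the data.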

Additional observations from a re-analysis of the deposited data

How the results depend on the processing

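When replicates or libraries were left out, the median log2 fold change of the 35 genes in *pifq* against WT lay between 1.67 and 1.89, and 24 to 30 genes passed; under the other settings the count was 27 to 30. Other counts moved more. In *pif3* against WT, 2 passed with the replicate block, with a sequencer term and with DESeq2, and 0 without scaling factors or with only the genotypes compared, with 0 to 2 when replicates were left out. In *pifq* against *pif145*, 2 passed with the block and 0 without scaling factors, with the filter of 5 CPM or with only the genotypes compared, with 0 to 3 when replicates were left out. Leaving out replicates gave 1 to 19 for *pif145* against WT, 10 to 24 for *pifq* against *pif3* and 0 for the interaction. The count of 1 in *pif145* against WT was without replicate 3, where 6 of all 18492 genes tested rose. The block with a replicate number left out (chosen after seeing the data; replicates 1, 2 and 3 in turn) gave 28, 30 and 29 for *pifq* against WT, 16, 25 and 19 for *pif145* against WT, 2, 6 and 0 for *pif3* against WT, 6, 0 and 1 for *pifq* against *pif145*, 20, 21 and 23 for *pifq* against *pif3*, and 2, 0 and 0 for the interaction. Medians with replicates left out were 0.50 to 0.73 for *pifq* against *pif145* and 1.07 to 1.33 for *pifq* against *pif3*. Without scaling factors the median of all genes in *pifq* against WT was -0.20, the median of the 35 was 1.59, and their sum in WT was 1.29%. The replicate block left the pair differences at -0.25 for *PSAD*, -0.91 for *PSBO* and 1.34 for *PETE* and brought them past the threshold; leaving out a replicate gave 1.22 to 1.47 for *PETE*, -1.04 to -0.81 for *PSBO*, -1.86 to -1.48 for *PSBQ*, 0.65 to 0.73 for *PSAE*, -1.15 to -1.04 for *PSAH* and -0.23 to 0.06 for FNR. The signs that turned belonged to genes near 0 that were not called in the comparison concerned: without scaling factors *ATPG* in *pifq* against WT (-0.01), *ATPG* in *pifq* against *pif145* (-0.04) and *FNR2* in *pif3* against WT (-0.03), and with replicates left out in *pifq* against *pif145* *ATPG* (-0.09 to 0.13), *PSBS* (-0.11 to 0.10) and *FNR1* (0.00 to 0.52), and in *pif3* against WT *FNR2* (-0.09 to 0.26), *FNR1* (-0.04 to 0.38) and *PSBS* (-0.21 to 0.14). The cause of these changes was not tested. Among the 35 genes, the block changed no call other than those given beside their results.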
